A study of Caenorhabditis elegans with 2 samples.

Results

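Cytosolic ribosomal protein genes were taken as the protein-coding genes of the Ensembl WBcel235 annotation whose symbol starts with rpl- or rps-. This gave 78 genes of 19973 coding genes, 47 named for the large ribosomal subunit and 31 for the small one. The binding data are lists of regions from ChIP-seq, in which DNA bound by a protein is precipitated and sequenced. The protein was AHR-1, an aryl hydrocarbon receptor of *C. elegans* and a transcription factor. Both samples came from strain OP562, which carries unc-119(tm4063) on chromosome III and the transgene wgIs562, encoding AHR-1 fused to a C-terminal GFP and FLAG tag. The material was whole late embryos of hermaphrodites, taken 3.5 h after eggs were synchronized by bleaching. An anti-GFP antibody was used on sonicated chromatin. There was 1 group of 2 biological replicates. No untagged or mock sample was analysed here, so no condition was compared. Because whole embryos were used, binding in few cells and weak binding in many cells cannot be told apart.

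Ribosomal proteins are the protein part of the ribosome, and their genes are among the most highly transcribed in dividing and growing cells. They are made in matching amounts, and in many animals their promoters share short sequence elements. Several also lie beside, or carry in their introns, genes for snoRNAs, the small RNAs that guide modification of ribosomal RNA. Aryl hydrocarbon receptors bind DNA with the partner ARNT, called AHA-1 in the worm, at sites with the core GCGTG.

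All 78 genes matched a RefSeq entry by gene identifier, and 74 of the RefSeq products name a ribosomal protein. The others were rps-10, rpl-42, rps-30, which RefSeq lists as fau-1, and rpl-24.2. The product of rps-10 names an eS10 domain. That of rpl-42 names only a NAM-associated domain, while eL42 is the product of rpl-36.A. The gene rpl-42 is thus in the set by its symbol alone. The product of rpl-24.2 is a putative ribosome biogenesis protein of the RLP24 type, which in yeast holds the place of a ribosomal protein in large subunit precursors. The genes lay on all 6 chromosomes, with 23 on I, 10 on II, 18 on III, 17 on IV, 8 on V and 2 on X.

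A gene was counted at a list of regions when a region's summit fell in a window that reaches from 1500 bp before a 5′ end of one of its coding transcripts to 500 bp past it. The pooled list, made from both replicates together, had 13858 regions. The 479 of highest signal make up the IDR list, in which the agreement of ranks between replicates sets the limit. The lists of single replicates held 22949 and 23313 regions. Signal is the authors' own value for each region, scaled separately for each list, and rank 1 is the strongest region of a list. Coordinates are of build ce11 (WBcel235) and start at 1, and negative distances are upstream of a gene's 5′ end.

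AHR-1 was found in the IDR list at 11 ribosomal protein genes. These were rpl-3, rpl-15, rpl-20, rpl-24.2, rpl-35 and rpl-43, named for the large subunit, and rps-1, rps-20, rps-24, rps-26 and rps-28, named for the small subunit. That is 14.1% of the 78 genes, against 2.58% of all coding genes (516 of 19973). In the pooled list, 50 of the 78 genes (64.1%) had a summit, against 29.9% of all coding genes (5974 of 19973). Among genes with a pooled summit, 11 of 50 ribosomal protein genes (22%) reached the IDR list, against 8.64% of all coding genes. These shares are descriptions and carry no test, since there is 1 group and the set was chosen with earlier results known. No p-value over genes is given.

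The sequences at 6 of the peaks are shown first, as examples with the core near the summit, farther from it or absent. They are not in proportion, since 5 of the 13 peaks had a core within 10 bp of the summit. Each is the 201 bp centred on the summit, from the RefSeq genome sequence of WBcel235, written 5′ to 3′ along the strand of the ribosomal protein gene. Capitals mark GCGTG, or CACGC where the core lies on the other strand. The first 4 have the core within 10 bp of the summit, rps-24 has it farther away and rps-28 has none in this window.
rpl-15 (chrIV:654819-655019, minus strand): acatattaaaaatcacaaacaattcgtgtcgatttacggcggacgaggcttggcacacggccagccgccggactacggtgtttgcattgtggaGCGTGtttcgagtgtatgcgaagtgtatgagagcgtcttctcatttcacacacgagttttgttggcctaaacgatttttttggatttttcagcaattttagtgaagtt
rpl-35 (chrIII:7854585-7854785, plus strand): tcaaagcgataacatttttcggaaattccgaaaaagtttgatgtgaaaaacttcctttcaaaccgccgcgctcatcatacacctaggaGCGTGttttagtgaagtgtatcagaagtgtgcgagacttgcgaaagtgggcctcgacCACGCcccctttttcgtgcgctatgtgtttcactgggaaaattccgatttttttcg
rpl-20 (chrIV:4749965-4750165, minus strand): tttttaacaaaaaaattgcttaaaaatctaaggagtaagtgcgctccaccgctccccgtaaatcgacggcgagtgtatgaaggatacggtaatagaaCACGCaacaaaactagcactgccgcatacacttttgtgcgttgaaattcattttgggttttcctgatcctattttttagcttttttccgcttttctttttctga
rpl-43 (chrII:14154459-14154659, plus strand): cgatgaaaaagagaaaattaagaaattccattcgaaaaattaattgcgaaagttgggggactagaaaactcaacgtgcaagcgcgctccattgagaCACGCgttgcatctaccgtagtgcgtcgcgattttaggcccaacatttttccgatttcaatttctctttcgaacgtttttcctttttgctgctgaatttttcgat
rps-24 (chrIV:385227-385427, plus strand): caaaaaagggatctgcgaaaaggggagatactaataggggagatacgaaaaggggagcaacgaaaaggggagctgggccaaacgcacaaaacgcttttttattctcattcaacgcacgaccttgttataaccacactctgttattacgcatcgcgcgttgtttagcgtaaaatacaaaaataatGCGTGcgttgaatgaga
rps-28 (chrIV:1659169-1659369, plus strand): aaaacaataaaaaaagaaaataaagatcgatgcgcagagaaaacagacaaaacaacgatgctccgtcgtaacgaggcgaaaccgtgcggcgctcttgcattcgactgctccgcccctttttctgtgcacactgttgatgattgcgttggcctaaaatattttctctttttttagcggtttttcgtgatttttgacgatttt

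The core was centred 6 bp upstream of the summit at rpl-3, 5 bp at rpl-15, 10 bp at rpl-35, 1 bp at rpl-20 and 2 bp at rpl-43, so in the first 4 sequences shown it stands just before the middle of the window. Within 100 bp, the planned distance, 7 of the 13 IDR peaks of ribosomal protein genes (53.8%) held the core. Over all IDR peaks it was 193 of 479 (40.3%). Within 10 bp it was at 5 of the 13 (38.5%), against 47 of all 479 (9.81%). The 10 bp limit was not planned and equals the largest of the 5 distances above, so this contrast is in part fixed by that choice. The nearest core was 86 bp downstream of the summit at the first rps-24 peak and 63 bp upstream of it at rps-1, and rpl-35 had a second core 47 bp downstream. The longer form TNGCGTG was present only at rpl-20 (7.69% of the 13, against 9.81% of all IDR peaks). Motifs were searched on both strands, the longer form contains the core, and a match of letters is not a known site of binding.

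Other motifs fell on the same peaks in different numbers. GCGCAC was within 100 bp of the summit at 5 of 13 peaks (38.5%), against 20.3% of all IDR peaks. It was also common in the set without regard to peaks. In the 600 bp upstream of the gene start it was at 28.2% of the 78 genes, against 10.1% of all coding genes. By group it was at 6 of the 11 IDR genes, 7 of the 39 with a pooled summit only and 9 of the 28 with none. Within 100 bp of the summit, GAGAGA was present at 3 of 13 peaks (23.1%), against 23.8%. CACGTG, the palindromic E-box of other bHLH factors, was present at none of the 13, against 3.34%. The median GC content of the windows was 41.3% at ribosomal protein genes and 43.8% over all IDR peaks.

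**Figure D1:**
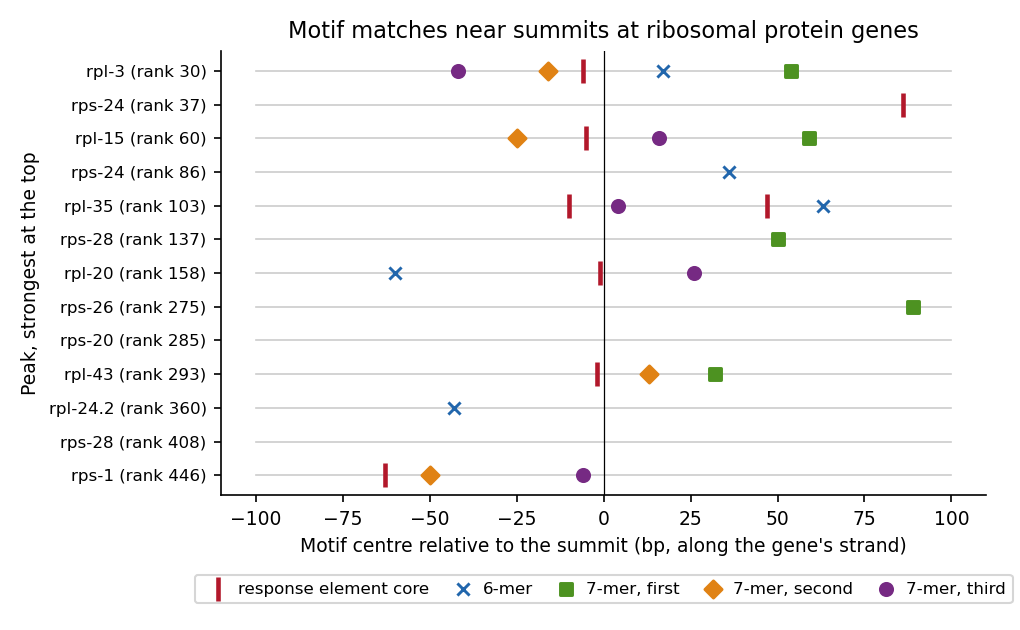
Position of motif matches in the 201 bp around each of the 13 IDR summits at ribosomal protein genes, in bp along the strand of the gene (negative is upstream), with 1 line per peak and the strongest at the top. Red bars are GCGTG, blue crosses GCGCAC, green squares GGCCTAA, orange diamonds ACCGTAG and purple circles AAGTGTA. Red bars cluster within 10 bp of 0 at rpl-3, rpl-15, rpl-35, rpl-20 and rpl-43, while green squares lie 32 to 89 bp downstream of the summit.

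The large subunit genes held the strongest peak. The highest signal was upstream of rpl-3, the gene for uL3, which sits close to the peptidyl transferase centre. Its peak at III:3867512-3867660 had a summit at -269 bp, a signal of 209.5 and rank 30 in the pooled list. The region had a signal of 122.1 (rank 37) in replicate 1 and 82.3 (rank 40) in replicate 2, so it stood near the top of both lists.

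The peak of rpl-15, the gene for eL15, lay at IV:654829-654949, with its summit at -343 bp, a signal of 179.1 and rank 60. Replicate 1 gave a signal of 100.9 (rank 73) and replicate 2 gave 76.9 (rank 49). The window of rpl-15 also holds the snoRNA gene K11H12.13, but that gene was 558 bp from the summit. The summit was 471 bp upstream of K11H12.8, the divergent neighbour, and so nearer to rpl-15.

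The peak of rpl-35 lay at III:7854463-7854906, with its summit at -449 bp, a signal of 141.9 and rank 103. This gene encodes uL29, found beside the exit of the peptide tunnel. Its region had a signal of 77.6 (rank 123) in replicate 1 and 63.8 (rank 103) in replicate 2. No other coding gene had its 5′ end within reach of this summit, as was also the case for rpl-3 and rpl-24.2.

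The peaks of rpl-20 and rpl-43 lay between divergent genes and were nearer to the neighbour. The rpl-20 peak (IV:4749843-4750286, signal 120.1, rank 158) was at -287 bp of rpl-20, the gene for eL20, and at -175 bp of Y17G9B.5. It had rank 132 in replicate 1 (signal 74.9) and rank 200 in replicate 2 (signal 46.4). The rpl-43 peak (II:14154337-14154780, signal 89.4, rank 293) was at -735 bp of rpl-43, the gene for eL43, at -186 bp of Y48B6A.1 and at -1209 bp of xrn-2. It had rank 298 in replicate 1 (signal 53.4) and rank 360 in replicate 2 (signal 35.7). For both peaks the lists do not say which gene of the pair the region belongs to.

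Of the 13 summits, that at rpl-24.2, the gene with a putative biogenesis product, lay closest to the 5′ end of a gene of the set, at -121 bp (I:9669072-9669515, signal 80.5, rank 360). It lay in an intron of C03D6.1, which overlaps rpl-24.2 on the other strand. Its rank was 499 in replicate 1 (signal 43.4) and 404 in replicate 2 (signal 33.7).

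Among small subunit genes, rps-24 (eS24) had a pair of overlapping IDR peaks upstream. The first (IV:385105-385548) had a signal of 202.6, rank 37 and its summit at -560 bp. The second (IV:385325-385768) had a signal of 156.3, rank 86 and its summit at -340 bp. The regions overlapped by 224 bp and their summits were 220 bp apart. In replicate 1 the first had rank 31 (signal 132.6) and the second rank 70 (signal 101.9), and in replicate 2 the first had rank 83 (signal 68.4) and the second rank 142 (signal 54.0). Both peaks were therefore high in both replicates, and the order of the pair was the same. The DNA around these summits is in part repetitive, as the rps-24 sequence above shows. The letters AAAGGGG, or CCCCTTT on the other strand, matched 10 times in the first region and 5 times in the second. Those 5 lie in the stretch common to both regions and are therefore among the 10. These letters were within 100 bp of the summit at 5 of the 13 peaks, against 9.6% of all IDR peaks. The 5 are the overlapping pairs of rps-24 and rps-28 and the peak of rpl-35, so fewer genes than peaks. The treatment of reads from repeats, not given in the sources used here, was not tested for its part in the rps-24 signal.

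The gene rps-28 encodes eS28, a protein at the path by which mRNA leaves the small subunit, and it also had a pair of peaks. The first (IV:1659047-1659490, -422 bp) had a signal of 127.8 and rank 137, with rank 117 in replicate 1 (signal 79.6) and rank 206 in replicate 2 (signal 45.3). The second (IV:1659247-1659690, -222 bp) had a signal of 75.9 and rank 408. Its match in replicate 1 had rank 243 (signal 58.1), but in replicate 2 it had rank 10489 (signal 13.6). The second peak was thus strong in replicate 1 alone. The regions overlapped by 244 bp with summits 200 bp apart, and the GC content around the second summit was the lowest of the 13, at 26.9%. Neither window held the GCGTG core or any of the other motifs named with it above, and GGCCTAA was in the first.

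The peaks of the 3 other small subunit genes were weaker than the first peaks of rps-24 and rps-28. That of rps-26 (I:14759300-14759743, signal 92.1, rank 275) was at -408 bp of rps-26 and at -49 bp of tmem-107, and it had rank 349 in replicate 1 (signal 49.9) and rank 234 in replicate 2 (signal 43.2). This gene encodes eS26, which like eS1 lies at the platform of the small subunit. The snoRNA gene F39B2.14 was 110 bp from the summit, the only case among the 13 within 250 bp of a small RNA gene. To which of the 3 genes the region belongs was not tested.

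The peak of rps-20 (I:14469131-14469574, signal 90.7, rank 285) was at -250 bp of rps-20, the gene for uS10, and at -147 bp of its divergent neighbour ekl-4. It had rank 227 in replicate 1 (signal 60.2) and rank 846 in replicate 2 (signal 25.9). The peak of rps-1 (III:4475465-4475908, signal 72.7, rank 446), at -231 bp of the gene for eS1, lay in the non-coding RNA gene F56F3.10 and at -537 bp of ifet-1. It had rank 432 in replicate 1 (signal 45.7) and rank 873 in replicate 2 (signal 25.6). In both cases replicate 1 ranked the region within its strongest 479 and replicate 2 did not.

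**Figure D2:**
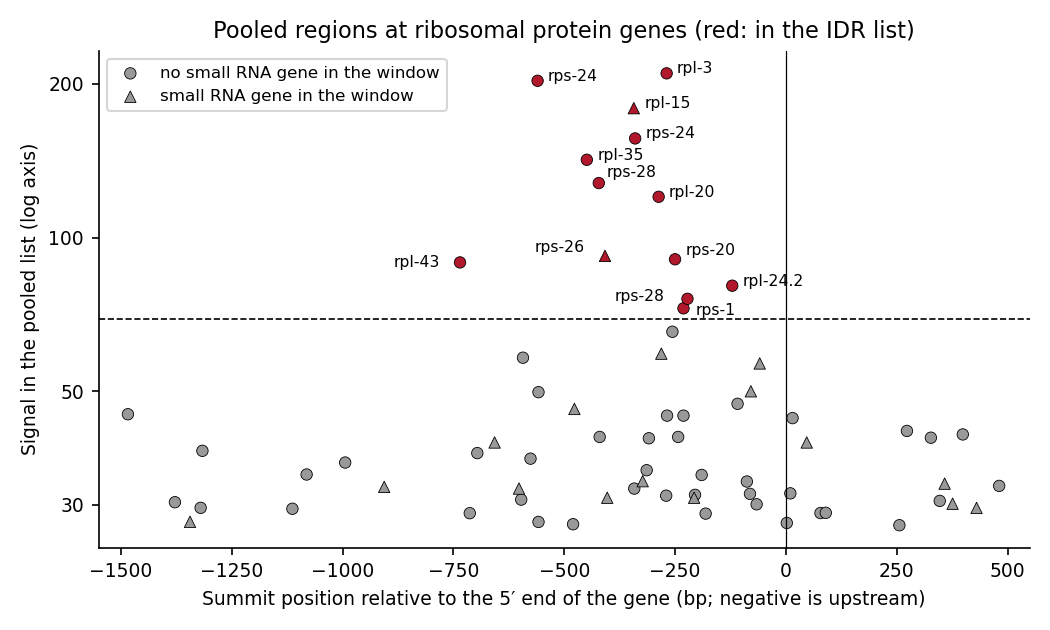
Signal in the pooled list (log axis) of every pooled region with its summit in the window of a ribosomal protein gene, against the position of the summit from the 5′ end of that gene (bp, negative is upstream). Red points are in the IDR list, triangles mark genes with a small RNA gene in the window, and the dashed line is the lowest IDR signal, 69.2. All red points lie upstream, from -735 to -121 bp, and a region within reach of a pair of members is drawn once for each.

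Counted as peaks, there were 13 IDR peaks at these 11 genes, in 11 separate stretches of DNA once the overlapping pairs are joined. All 13 summits were upstream, and 11 lay within 500 bp of the 5′ end, against 59.1% of the 540 pairs of IDR summit and gene over all coding genes. The median distance was 340 bp at ribosomal protein genes and 327.5 bp over all such pairs, of which 95% were upstream. By the annotation 11 of the 13 summits were intergenic. The deposited −log10 q values of the 13 peaks were between 2.07 and 2.87.

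Their median rank in the pooled list was 158, and 7 of the 13 were in the upper 0.5 of the IDR list. In the replicates, the median rank of their matched regions was 132 in replicate 1 and 206 in replicate 2, against 241 and 245 for all IDR peaks. Matched means the replicate region with the largest overlap. Of the 13 peaks, 12 were among the 479 strongest regions of replicate 1, 10 among those of replicate 2 and 9 among both, against 308 of all 479 IDR peaks (64.3%) among both.

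**Figure D3:**
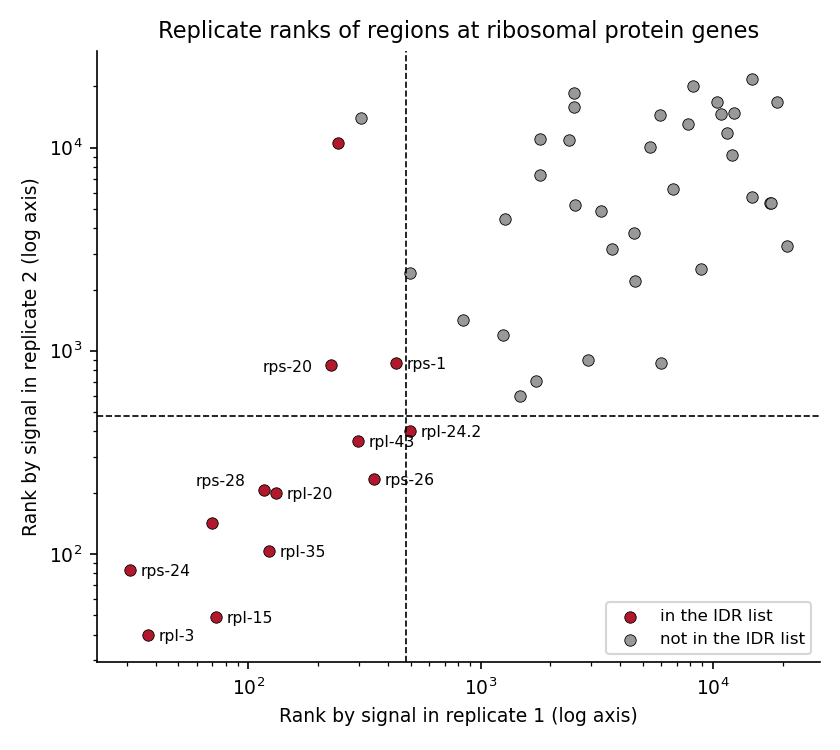
Rank by signal in replicate 1 against rank in replicate 2 (both log axes, 1 is the strongest) for the 49 of 66 pooled regions at ribosomal protein genes that overlap a region of both replicate lists. Red points are the 13 IDR peaks, grey points the other regions, and dashed lines mark rank 479. Most red points lie below both lines. The red points without a name are the second peaks of rps-24 and, at rank 10489 in replicate 2, of rps-28.

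Counted by gene from the strongest 479 regions of each replicate, replicate 1 gave 11 ribosomal protein genes (14.1%, against 2.4% of all coding genes) and replicate 2 gave 9 (11.5%, against 2.52%). In both lists the genes were rpl-3, rpl-15, rpl-20, rpl-35, rpl-43, rps-24, rps-26 and rps-28, which is 10.3% of the 78, against 1.77% of all coding genes. The gene rps-19 came from replicate 1 alone, as did rps-1 and rps-20, and rpl-24.2 came from replicate 2 alone. With the full replicate lists, 48 of the 78 genes (61.5%) had a summit of both in the window, against 26.1% of all coding genes.

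Where each summit was given only to its nearest coding gene, 7 ribosomal protein genes remained (8.97%, against 1.57%). These were rpl-3, rpl-15, rpl-24.2, rpl-35, rps-1, rps-24 and rps-28, and 9 of the 13 peaks were nearest to them. The 4 genes lost, rpl-20, rpl-43, rps-20 and rps-26, all have a divergent neighbour whose 5′ end is closer to the summit. Among the 11 genes, 10 have a divergent upstream gene and rpl-3 alone has one on its own strand. The upstream gene was the nearest on that side at any distance, so these are not all close pairs. The gap was 2701 bp at rps-24, 11497 bp at rpl-35 and 14392 bp at rps-28, and rpl-24.2 overlaps its neighbour.

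Over the whole set, 54 ribosomal protein genes have a divergent upstream gene, of which 10 (18.5%) had an IDR summit and 38 (70.4%) a pooled one. Of the 24 with an upstream gene on the same strand, 1 (4.17%) had an IDR summit and 12 (50%) a pooled one. For all coding genes the shares were 3.77% and 32.9% with a divergent upstream gene, and 1.57% and 27.4% with one on the same strand. The shares were thus higher with a divergent upstream gene in both sets, with gaps of any length counted.

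A small RNA gene, counted as a tRNA, snoRNA, snRNA, miRNA or rRNA gene, lay in the window of 14 of the 78 genes. These windows held 16 such genes, 15 for snoRNAs and 1 for a miRNA. Among the 64 ribosomal protein genes without one, 9 (14.1%) had an IDR summit, against 2.21% of such coding genes, and 39 (60.9%) had a pooled summit, against 29.1%. Among the 14 with one, 2 (14.3%) had an IDR summit, rpl-15 and rps-26, against 15.2% of such coding genes. For that group the IDR share was thus near the share of all coding genes with a small RNA gene close by. In the pooled list 11 of the 14 (78.6%) had a summit, against 58.5%. Of the 66 pooled regions at ribosomal protein genes, 5 were within 250 bp of a small RNA gene.

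By the subunit in the symbol, 6 of 47 large subunit genes (12.8%) and 5 of 31 small subunit genes (16.1%) had an IDR summit. The share of all coding genes was 2.58%. The 6 include rpl-24.2, whose product is a putative biogenesis protein. In the pooled list it was 26 large (55.3%) and 24 small subunit genes (77.4%), against 29.9% of all coding genes. By chromosome, the IDR genes were 3 of 23 on I (13%, against 3.61% of all coding genes there), 1 of 10 on II (10%, against 2.55%), 3 of 18 on III (16.7%, against 4.2%) and 4 of 17 on IV (23.5%, against 2.56%). None of the 8 on V or the 2 on X had one, against 1.56% and 1.87% of all coding genes there, numbers too small to read.

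Below the IDR list, the strongest region was upstream of rps-19, at -256 bp, with a signal of 65.4 and rank 545, just under the lowest IDR signal of 69.2. The weakest IDR peak of the set, at rps-1, had 72.7. The rps-19 region had rank 306 in replicate 1 and rank 13913 in replicate 2, so the replicates differed widely there. Next came rps-23 (59.3, rank 693, -281 bp), rps-18 (58.2, rank 733, -593 bp), rpl-7A (56.7, rank 788, -59 bp) and rps-12 (50.02, rank 1189, -79 bp). The best region at rpl-7A ranked higher in replicate 2, at 601, than in replicate 1, at 1474, and that at rps-23 likewise had rank 710 in replicate 2 and 1728 in replicate 1.

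The signal was 49.8 at rps-27 (rank 1214, -558 bp), 47.3 at rps-17 (rank 1475, -109 bp), 46.2 at rpl-7 (rank 1614, -477 bp), 45.1 at rps-14 (rank 1791, -1484 bp) and 44.8 at rpl-39 (rank 1833, -231 bp). Of these 10 genes, 7 encode small subunit proteins, and rpl-7, rpl-7A, rps-12 and rps-23 have a snoRNA gene in the window. The rps-12 summit was 159 bp from the snoRNA gene F54E7.10. Another coding gene was nearer to the summits of rps-19 (hsr-9), rps-23 (dpm-3), rps-18 (sec-61.A), rps-27 (picd-1) and rps-14 (ndab-2). The rps-14 summit lay in an intron of ndab-2, and that of rps-18 in an exon of sec-61.A. To which gene these regions belong was not tested. The other 29 genes with a pooled summit had strongest signals from 27.5 to 44.8, at ranks 1833 to 12757.

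Over the 50 genes with a pooled summit, the median of the strongest signal was 40.5, against 34.8 over all coding genes with one. Without the IDR genes it was 36.9 and 33.9. The 70 pairs of gene and pooled region comprised 66 distinct regions, and 78.6% of pairs were upstream, against 77.5% over all coding genes. Within 500 bp upstream lay 50% of the pairs, against 34.9%, and the median distance was 341 bp, against 422 bp.

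**Figure D4:**
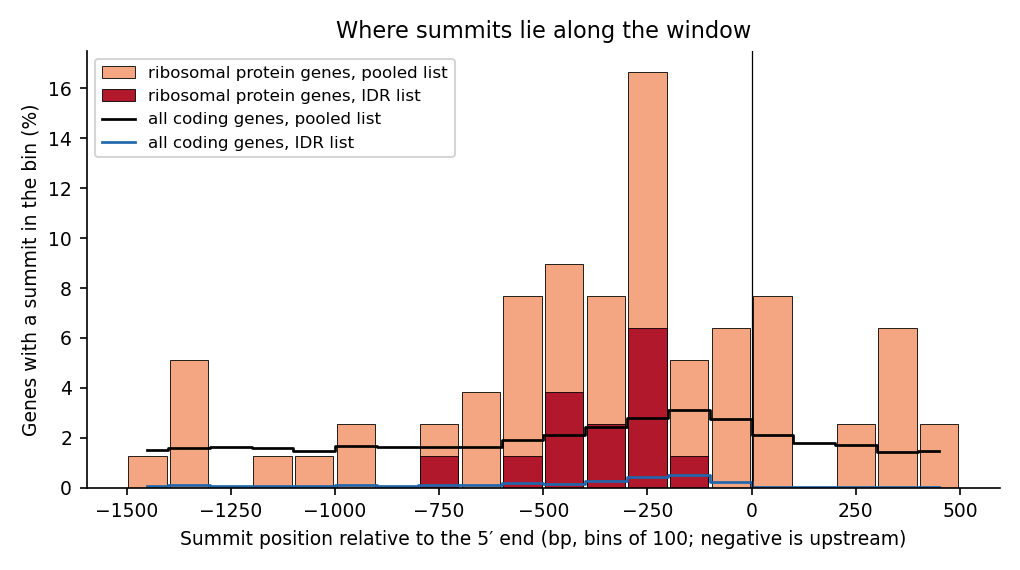
Share of genes (%) with a summit in each 100 bp bin from the 5′ end (bp, negative is upstream). Bars are the 78 ribosomal protein genes in the pooled list (light) and the IDR list (dark), and lines are all coding genes in the pooled list (black) and the IDR list (blue). The tallest bar of both kinds is between 300 and 200 bp upstream, with 13 genes in the pooled list and 5 in the IDR list.

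Members next to each other shared regions. The genes rpl-39 and rps-30 shared the region of rank 1833, rps-14 and rpl-36 shared 1 of rank 2816, and rps-10 and rpl-24.1 shared a pair, of ranks 3177 and 8492. Each such pair counts as 2 genes in the shares above, though the regions are common to them.

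The remaining 28 genes had no pooled summit in the window. They include rpl-1, rpl-4, rpl-10, rps-2, rps-3, rps-6 and rps-8. In the lists of single replicates, 65 of the 78 genes had a summit of replicate 1 in the window and 56 one of replicate 2. No share of all coding genes stands beside these 2 counts, so they are not read as high or low. With both lists required, the shares were the 61.5% and 26.1% given above. For rpl-10, rpl-16, rpl-18, rpl-26 and rps-2, neither replicate list had a summit in the window. A gene without a region may still be bound below what these lists hold.

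Some pairs of copies can be set side by side. For uL5, rpl-11.2 had a pooled region at rank 12757 and rpl-11.1 had none. For uL23, rpl-25.2 had one at rank 10887 and rpl-25.1 had none. In replicate 1 the order was reversed, with best ranks of 3692 at rpl-25.1 and 10807 at rpl-25.2. In replicate 2 only rpl-25.2 had a region, at rank 14542. The pooled signals, 27.5 at rpl-11.2 and 28.8 at rpl-25.2, were near the lowest of the pooled list, 26.7. These contrasts between copies are therefore weak. The pair for L41, rpl-41.1 and rpl-41.2, had regions at ranks 12335 and 4295. Reads shared by copies may have been treated in a way not given in the sources used here.

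Cores of GCGTG were not limited to genes with IDR peaks. In the 600 bp upstream of the annotated gene start it was present at 6 of the 11 IDR genes (54.5%), 18 of the 39 with a pooled summit only (46.2%) and 12 of the 28 with none (42.9%). Over all 78 it was 46.2%, against 31.5% of all coding genes. The shares of the 3 groups thus lay close together, and each was above the share of all coding genes. In 201 bp windows centred 300 bp upstream, the core was in 28.2% of the 78 windows, against 11.4% of all coding genes, with a median GC content of 39.1% and 33.8%. Around the 53 pooled summits outside the IDR list it was in 20.8%, against 16% of all such summits.

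Among all 7-letter words, 26 were present in 5 or more of the 13 peak windows, most of them rich in A or T. Words were chosen after their counts were seen, so the counts are descriptions. GGCCTAA, the rarest of them over upstream windows of all coding genes, was at rpl-3, rpl-15, rps-28, rps-26 and rpl-43 (38.5%, against 3.76% of all IDR peaks), always 32 to 89 bp downstream of the summit. In the 600 bp upstream it was at 25 of 78 ribosomal protein genes (32.1%), against 3.43% of all coding genes. It was at 5 of 11 IDR genes (45.5%), 10 of 39 with a pooled summit only (25.6%) and 10 of 28 with none (35.7%). This word is therefore common in the set and was found with or without a region. ACCGTAG likewise was at 16 of 78 genes (20.5%), against 2.95%, with 3 of 11, 8 of 39 and 5 of 28 in the same groups.

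AAGTGTA was distributed in another way. It was within 100 bp of the summit at rpl-3, rpl-15, rpl-35, rpl-20 and rps-1 (38.5% of the 13), and at 14 of all 479 IDR peaks (2.92%), so 5 of those 14 belong to ribosomal protein genes. All 5 windows also hold GCGTG, as do 9 of the 14. In the 600 bp upstream it was at 5 of the 11 IDR genes (45.5%), at rpl-38 and rpl-5 among the 39 with a pooled summit only (5.13%) and at none of the 28 without. Over the 78 genes the share was 8.97%, against 9.29% of all coding genes. Among all coding genes it was at 49 of the 516 with an IDR summit (9.5%) and at 9.71% of those with no pooled summit. Genes with an IDR summit thus did not carry the word more often genome-wide. Unlike GGCCTAA, then, AAGTGTA was no more frequent in the set as a whole. It was picked for being in 5 of the 13 peak windows. That 5 of its 7 genes had an IDR peak therefore follows from the choice.

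Other genes of protein synthesis were read by the same rule. Of 70 genes for mitochondrial ribosomal proteins, which are made in the cytosol for a separate ribosome, 7 (10%) had an IDR summit and 36 (51.4%) a pooled one. The highest were mrps-21 (signal 216.3, rank 27, -1171 bp) and mrps-28 (206.5, rank 33, -1012 bp). Next came mrpl-23 (141.9, rank 104, -927 bp) and mrpl-18 (104.4, rank 210, -225 bp). All of these but the mrpl-18 summit lay farther upstream than the farthest IDR summit of the cytosolic set, at -735 bp. The mrps-28 summit was 40 bp from the snoRNA gene Y43F8C.22 and the mrpl-23 summit lay on T08B2.13. Of 39 translation factor genes 3 (7.69%) had an IDR summit, all for subunits of the initiation factor eIF3: eif-3.I (179.0, rank 62), eif-3.E (126.0, rank 140) and eif-3.C (92.1, rank 274). A pooled summit was at 21 of them (53.8%).

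Of 26 ribosome biogenesis genes found among 29 names, 3 (11.5%) had an IDR summit and 14 (53.8%) a pooled one. These were fib-1 (150.9, rank 94), for the methyltransferase fibrillarin that works on ribosomal RNA, rbd-1 (82.2, rank 342), and xrn-2, through the peak it shares with rpl-43. Of 8 genes of the TOR pathway, rict-1 alone (86.0, rank 314) had an IDR summit (12.5%), and 2 (25%) had a pooled one, against 29.9% of all coding genes. Of the 6 genes for stalk proteins, ubiquitin fusions and RACK none had an IDR summit and 3 had a pooled one, the strongest at ubl-1 (68.6, rank 489, -181 bp), for a ubiquitin-like protein fused to a ribosomal protein. Whether the ribosomal protein share of 14.1% differs from those of these lists was not tested. That share counts rpl-24.2, which is not in the biogenesis list.

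**Figure D5:**
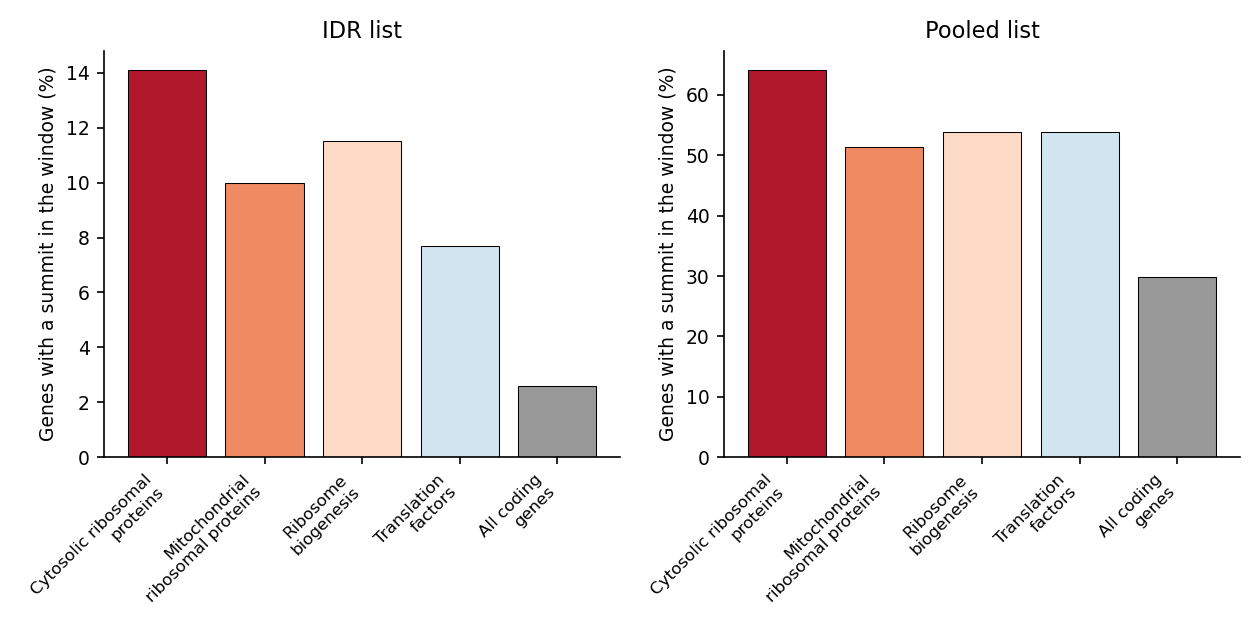
Share of genes (%) with an IDR summit (left) and a pooled summit (right) in the window, for cytosolic ribosomal proteins, mitochondrial ribosomal proteins, ribosome biogenesis genes, translation factors and all coding genes. Bars start at 0 and have no error bars, since each is a count in 1 list. The cytosolic ribosomal proteins have the tallest bar in both (14.1% and 64.1%), and all coding genes the lowest of the groups drawn (2.58% and 29.9%). The TOR and the stalk, ubiquitin fusion and RACK lists, of 8 and 6 genes, are not drawn.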

How the data were processed

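Each of the 2 biological replicates had its own list of AHR-1-GFP regions, beside a pooled and an IDR list. The authors called regions against a control library, per the deposited file descriptions. That library was not analysed here. Read depth, aligner, peak caller and IDR threshold are all not given in the sources used here, so the precision of single values is unknown. The labels name ahr-1 as antibody target, but their description states anti-GFP, which was followed. Each deposited region carries a signal and a −log10 q, as computed by the authors and used only to describe and rank regions within a list.

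The 4 ce11 lists were joined to Ensembl release 115 and to RefSeq's WBcel235 sequence after a check of chromosome lengths. Python 3.11.15, numpy 2.4.6, pandas 2.3.3 and matplotlib 3.10.9 were used, and summit assignment was tested on simulated data. The members, gene lists and motifs were chosen with earlier results of these data known. Named genes are all members with an IDR summit, the next 10 by pooled signal, small RNA genes and nearest coding genes at those summits, and up to 4 IDR genes per related list. Others were chosen after their values were seen. Alternatives were other windows, nearest gene only, stronger regions, single replicates and other distances. The ce10 lists were not used. Sequences at 7 of the 13 peaks are not reported here.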

Additional observations from a re-analysis of the deposited data

How the results depend on the processing

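The count of 11 ribosomal protein genes with an IDR summit was 7 under assignment to the nearest coding gene alone, and 6 with the stronger 0.5 of the IDR list, where 1.36% of all coding genes were called. It was between 9 and 11 with the strongest regions of a single replicate. With the other windows, gene starts, overlaps and small RNA distances tried it was between 10 and 12. The share of all coding genes moved as well, from 1.62% beside 10 members in the narrowest window to 3.31% beside 12 in the widest. It was 2.45% beside 11 with gene starts and 2.21% beside 10 without summits near small RNA genes. For overlap in place of summits no such share is given. The count of genes with a pooled summit was between 35 and 61. The lowest, 35, was under assignment to the nearest coding gene alone, where 23.5% of all coding genes were called. It was 36 with the stronger 0.5 of the pooled list, beside 17.8%. For single replicates it was 51 from replicate 1, beside 29.5%, and 48 from replicate 2, beside 30.5%. The share of all coding genes moved with the window, from 15.5% beside 37 members to 41.5% beside 61. The count of IDR peaks was between 11 and 15 across windows and 10 to 13 for single replicates. The median strongest pooled signal was 44.3 with the window from 500 bp upstream to 200 bp downstream. GCGTG was at 5 of 13 peaks within 50 bp and at 8 within 250 bp, and at 6 to 8 peaks from single replicates. The count of IDR genes without a small RNA gene was between 8 and 10, with 7 to 9 for single replicates. Single-replicate alternatives other than that for the IDR genes were chosen after seeing the data. No paired analysis was possible because there was 1 group. With 2 replicates and no read depth, the precision of a rank cannot be given, and regions weaker than the lists hold are not seen.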
